A study of Mus musculus with 7 samples.

Results

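Microglia are the resident macrophages of the brain, and the 37 genes described here mark them or serve their complement, phagocytic and lysosomal functions. They were chosen by name and matched to the deposited count files by Ensembl identifier, and all 37 were found among 55416 identifiers. Of these, 30 passed the filter on low counts and were tested within 13152 genes. Fcer1g and Lgals3 passed it only when the ONX-0914 libraries were included. The genes fall into 7 roles, namely 12 homeostatic identity genes with purinergic and chemokine receptors, 5 complement genes, 7 phagocytic receptors, adaptors and pan-myeloid genes, 4 genes of the Toll-like receptor arm, 3 lysosomal genes, 3 genes of disease-associated activation and 3 genes of MHC class II presentation.

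The study asked how chronic inhibition of the immunoproteasome, the proteasome form typical of immune cells, alters the hippocampus. All animals were male, age-matched mice of the outbred CD1 stock, in which individuals differ genetically. Control mice received no injections (3 libraries, replicates 1 to 3). DMSO mice were injected intraperitoneally with the vehicle 2 times per week for 2 months (2 libraries, replicates 2 and 3). ONX-0914 mice received the immunoproteasome inhibitor ONX-0914 at 10 mg/kg by the same route and schedule (2 libraries, replicates 1 and 2). The sources do not state whether a library came from 1 animal or several. Consequently, p-values measure the spread between these libraries, which may be technical in part. Library values below are given in this order, control 1 to 3, DMSO 2 and 3, and ONX-0914 1 and 2. Their unit is CPM, read counts scaled to a common library size with TMM factors, unless stated otherwise.

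In the healthy brain microglia survey the tissue with motile processes and follow ATP and ADP through P2Y receptors, while the neuronal chemokine CX3CL1 acts on their receptor CX3CR1 and neuronal or glial CSF1 and IL-34 maintain them through CSF1R. Complement begins with C1q, a complex of the products of C1qa, C1qb and C1qc, which microglia supply in the brain. C1q tags synapses and debris, C4 and C3 extend the tag, and the CR3 receptor, whose alpha chain is encoded by Itgam, leads to engulfment. Fc receptors and TREM2 signal through the small adaptors encoded by Fcer1g and Tyrobp, and engulfed material is degraded in lysosomes by cathepsins. Microglia that respond to damage lower homeostatic genes such as P2ry12, Tmem119 and Cx3cr1, and raise Apoe, Lgals3, Cst7 and MHC class II genes. Several of the 37 genes are also made by other cells, among them Apoe and C4b by astrocytes and Ctsd by most cells. In bulk tissue, fewer cells of a type and less RNA per cell cannot be told apart.

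Total counts ranged from 2842675 to 3877006 in 6 libraries and reached 13782270 in ONX-0914 replicate 2. The hippocampal label was checked with 7 marker genes of hippocampal neurons, whose summed level was 790 to 875 CPM in the control and DMSO libraries, 631 for ONX-0914 replicate 2 and only 212 for ONX-0914 replicate 1. The library labelled ONX-0914 replicate 1 also had 989 CPM over 7 striatal markers (153 to 186 in control and DMSO) and 1079 over 7 markers of thalamus and midbrain (94.2 to 120). Thus its marker pattern went against its tissue label. ONX-0914 replicate 2 held 837 CPM of 5 red blood cell genes, while ONX-0914 replicate 1 had 96.4 and control and DMSO had 30.02 to 46.4, and its mitochondrial share was 3.71% against 0.818% to 1.59%. Both ONX-0914 libraries therefore stood apart from the rest, each in its own way. A value without 1 of the ONX-0914 libraries rests on the other alone.

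Few genes of any kind were called with ONX-0914 against control. Of the 30 microglia and complement genes tested, 0 were called at an FDR below 0.05 (edgeR quasi-likelihood test), near the 0.114% of all genes. At an unadjusted p below 0.05 there were 9 genes, all higher with ONX-0914 (Csf1r, Siglech, C1qb, C1qc, Fcgr3, Fcer1g, Ly86, Ctss and Ctsd), where 18.6% of all genes reached this level and 10.6% were higher. DESeq2 called 1 of the genes, Ctsd, where it called 2.83% of all genes, and edgeR without the filter on low counts called 5 of 37 (2.15% of all genes). The Log2FC was above 0 for 24 of 30 genes, with a median of 0.46, whereas 53.8% of all genes were above 0 with a median of 0.05. In 11 of 30 genes both ONX-0914 libraries exceeded all control libraries, where 16.9% of all genes did. In 1 gene, C3, both were lower (16.3% of all genes). Fcer1g is among the 9, the 24 and the 11 genes, and Lgals3 among the 24. Both passed the filter only with the ONX-0914 libraries included, which favours higher values there. Without ONX-0914 replicate 1 the median Log2FC was 0.61 over 32 genes tested, and 0.0083 over all genes. Cd14, H2-Ab1 and Fcer1g passed the filter in that fit only through ONX-0914 replicate 2, where they are high. Without ONX-0914 replicate 2, 0 of 30 were called, where 19% of all genes were.

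The higher values were unevenly distributed between the libraries. The median of the 30 genes, as the log2 difference from the control mean on CPM + 0.5, was 0.23 in ONX-0914 replicate 1 and 0.53 in ONX-0914 replicate 2, and 0.17 and 0.32 in DMSO replicates 2 and 3. Over all genes tested the same median was 0.00 to 0.04 in these 4 libraries. ONX-0914 replicate 2 was the highest of the 7 libraries for 17 of 30 genes (30.3% of all genes) and the lowest for 4 (29.1%). ONX-0914 replicate 1 was the highest for 3 genes (21%) and the lowest for 2 (18%). Hence, most of the high values belonged to ONX-0914 replicate 2.

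**Figure D1:**
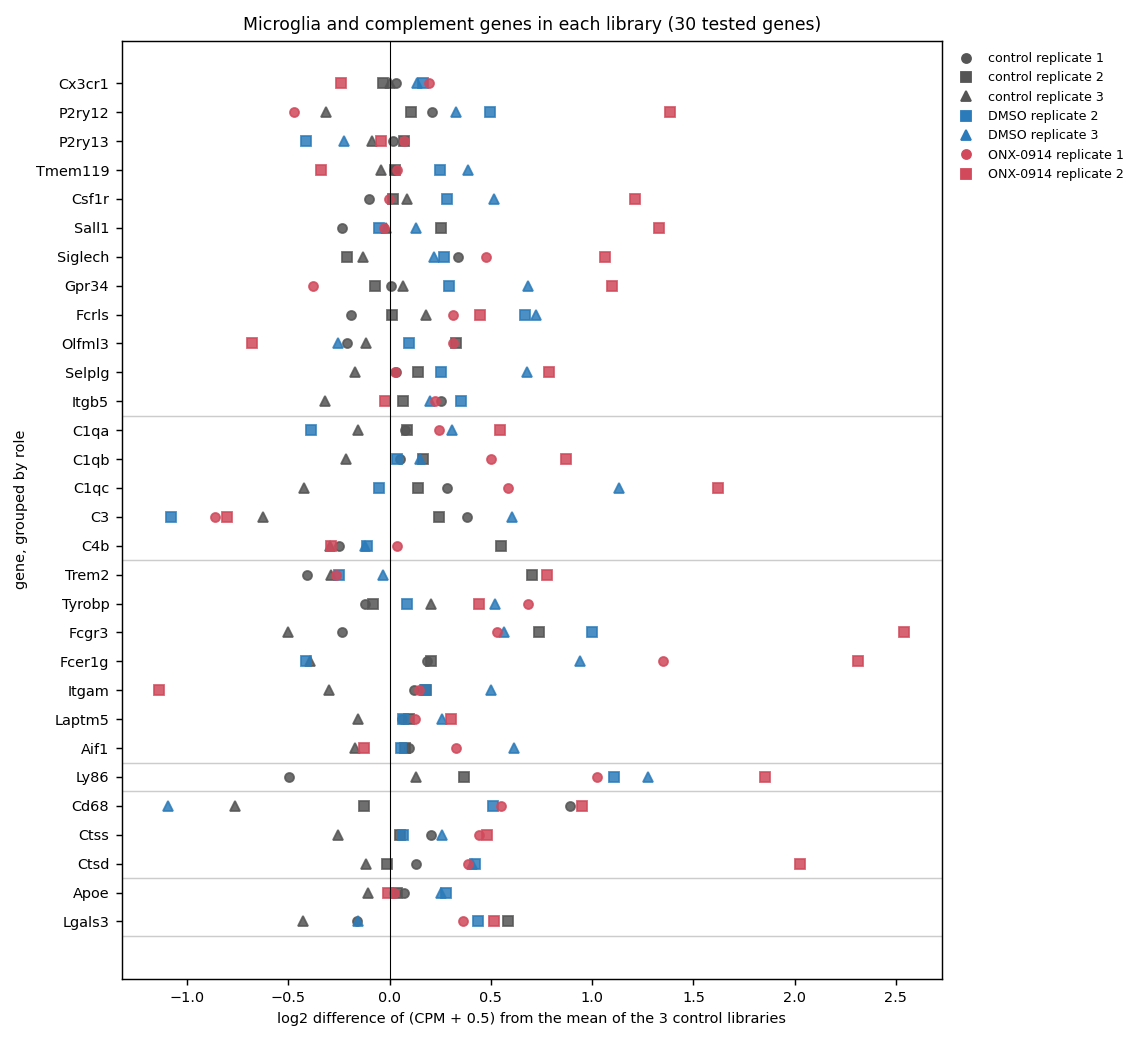
Log2 difference of CPM + 0.5 from the mean of the control libraries (x axis) for the 30 tested genes in rows, grouped by role, with 1 point per library. ONX-0914 replicate 2 (red squares) is the highest library for 17 genes and the lowest for 4, namely Tmem119, Cx3cr1, Olfml3 and Itgam.

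In 4 of 30 tested genes, namely C1qb, Fcer1g, Siglech and Ctss, both ONX-0914 libraries lay above all 5 other libraries. This is near the 11.4% of all genes that did so, and Fcer1g passed the filter on low counts only through the ONX-0914 libraries. No gene lay below all 5 with both (11.3% of all genes). Upstream sequences of these 4 genes, with C1qc as the neighbouring C1q gene and Ctsd as the gene of smallest FDR by DESeq2, are shown from 250 bases before to 10 after the transcription start (RefSeq, build GRCm38.p6, gene strand). Capitals mark the motif searched, or its reverse complement.
C1qb (chr4:136886191-136886450, minus strand): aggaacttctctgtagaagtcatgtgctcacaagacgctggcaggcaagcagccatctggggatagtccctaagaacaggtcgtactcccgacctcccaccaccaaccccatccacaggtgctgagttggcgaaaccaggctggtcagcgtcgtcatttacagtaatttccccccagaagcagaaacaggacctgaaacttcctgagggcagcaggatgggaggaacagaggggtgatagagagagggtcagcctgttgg
C1qc (chr4:136892905-136893164, minus strand): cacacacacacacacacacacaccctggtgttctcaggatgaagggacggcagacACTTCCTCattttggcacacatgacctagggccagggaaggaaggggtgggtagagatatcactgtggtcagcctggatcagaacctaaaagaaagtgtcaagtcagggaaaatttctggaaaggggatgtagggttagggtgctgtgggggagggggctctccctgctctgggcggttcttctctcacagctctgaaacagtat
Fcer1g (chr1:171234340-171234599, minus strand): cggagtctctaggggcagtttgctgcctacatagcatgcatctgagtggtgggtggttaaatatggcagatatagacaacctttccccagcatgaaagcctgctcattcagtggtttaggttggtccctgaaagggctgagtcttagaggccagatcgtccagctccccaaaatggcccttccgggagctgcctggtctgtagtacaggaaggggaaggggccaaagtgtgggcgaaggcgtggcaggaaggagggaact
Siglech (chr7:55767934-55768193, plus strand): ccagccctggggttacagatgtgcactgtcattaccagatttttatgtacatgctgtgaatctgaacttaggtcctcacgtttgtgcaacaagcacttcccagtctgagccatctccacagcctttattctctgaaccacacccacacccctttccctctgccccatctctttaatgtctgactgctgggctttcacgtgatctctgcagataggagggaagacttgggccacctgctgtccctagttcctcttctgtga
Ctss (chr3:95526536-95526795, plus strand): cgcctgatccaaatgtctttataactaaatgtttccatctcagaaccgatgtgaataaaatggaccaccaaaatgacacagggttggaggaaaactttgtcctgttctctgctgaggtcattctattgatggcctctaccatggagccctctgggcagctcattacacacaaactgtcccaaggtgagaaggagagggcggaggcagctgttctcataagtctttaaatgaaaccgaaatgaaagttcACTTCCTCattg
Ctsd (chr7:142387818-142388077, minus strand): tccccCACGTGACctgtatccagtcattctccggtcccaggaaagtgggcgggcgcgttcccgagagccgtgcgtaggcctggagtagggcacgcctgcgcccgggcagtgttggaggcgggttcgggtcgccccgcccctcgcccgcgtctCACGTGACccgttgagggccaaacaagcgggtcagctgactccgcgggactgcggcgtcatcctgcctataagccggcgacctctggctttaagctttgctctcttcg

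An entry was found for 26 of the 37 genes, and 3 motifs were searched on both strands within 250 bases before and 50 after the start. GAGGAAGT, a site form of PU.1, the transcription factor that defines the myeloid lineage, was present at C1qc, 195 bases before the start, and at Ctss, beginning 2 bases before it. This motif occurred in 3.2% of all 32851 promoters. GTCACGTG, the core of the CLEAR element of lysosomal genes, was present at Ctsd, 245 and 98 bases before the start, and in 2.25% of all promoters. CTGATTGG, a Y box of MHC class II promoters, was present at H2-Aa, 51 bases before the start, and in 4.1% of all promoters. GTCACGTG contains the E box CACGTG, and the other motifs share no overlap. A match describes letters and not a bound site.

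Levels between genes were compared per kilobase of exon. Among the 37 genes, Apoe, the lipid carrier of the brain, was highest in control hippocampus with 642 ± 41.9 CPM per kilobase (SD, n = 3). It was followed by Ctss with 55.8 ± 8.87, C1qa with 42.4 ± 3.95 and C1qb with 22.2 ± 2.97 CPM per kilobase. Ctss and C1qa did not overlap (46.2 to 63.8 against 37.9 to 44.8), and neither did C1qa and C1qb. Next came Tmem119 (20.4 ± 0.542), Ctsd (19.6 ± 1.68), Cx3cr1 (19.1 ± 0.454) and Itgb5 (18.3 ± 3.58), in which the ranges of Ctsd and its neighbours overlapped. Homeostatic markers were thus clearly detected, and P2ry12 had 5.62 ± 1.05 CPM per kilobase. In contrast, Tlr4 (0.0705 ± 0.0738) and Cst7 (0 in all 3 control libraries) were at or near 0 on the same scale.

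**Figure D2:**
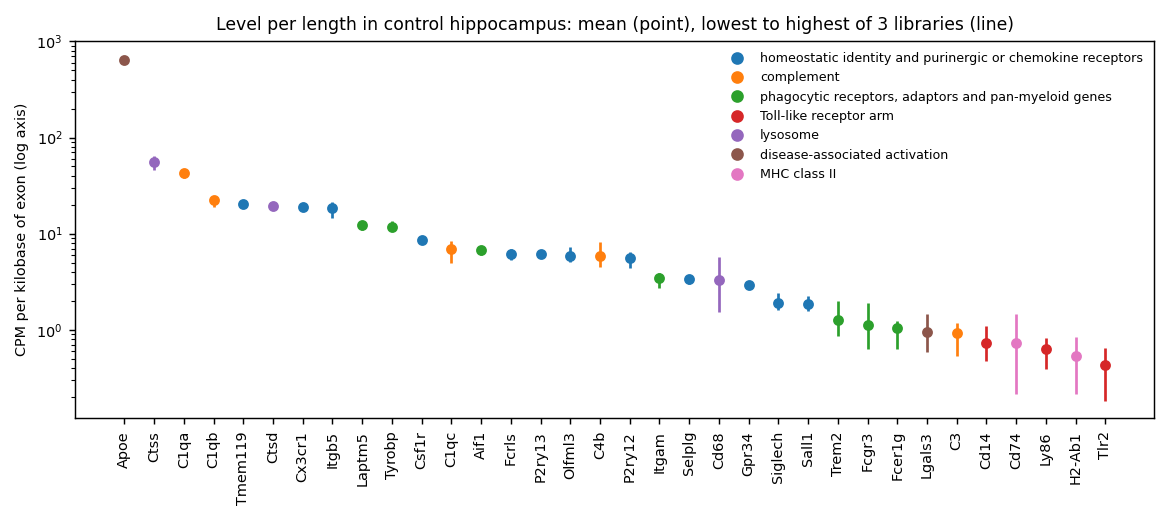
Level per exon length in the 3 control libraries (CPM per kilobase, log axis), as the mean (point) and the range (line), coloured by role, for the 34 genes with a count in each control library. Apoe stands above all others at 642, and the Toll-like receptor and MHC class II genes lie at the low end.

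All 3 C1q chains had higher levels in both ONX-0914 libraries than in any control library, with the highest in replicate 2, but none passed the test. C1qa had 46.3, 46.6 and 39.4 CPM in control, 33.5 and 54.6 in DMSO, and 52.1 and 64.3 in ONX-0914. Its Log2FC against control was 0.40 ± 0.23 (SE; edgeR quasi-likelihood test, FDR = 0.377) and 0.24 without ONX-0914 replicate 2, and ONX-0914 overlapped DMSO. C1qb had 24.96, 27.0 and 20.7 CPM in control, 24.7 and 26.8 in DMSO, and 34.2 and 44.3 in ONX-0914. Here all 5 other libraries lay below both ONX-0914 libraries, and control and DMSO overlapped. The Log2FC of C1qb against control was 0.71 ± 0.21 (unadjusted p = 0.00899, edgeR quasi-likelihood FDR = 0.157). It was 0.87 without ONX-0914 replicate 1 and 0.50 without ONX-0914 replicate 2. C1qc had 16.04, 14.5 and 9.64 CPM in control, 12.6 and 29.3 in DMSO, and 19.9 and 41.3 in ONX-0914. The Log2FC of C1qc was 1.23 ± 0.42 (edgeR quasi-likelihood FDR = 0.199), or 1.63 and 0.59 without ONX-0914 replicates 1 and 2, and 1 DMSO library lay between both ONX-0914 libraries.

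The proportions of the 3 chains also differed between libraries. Per kilobase, C1qc made up 8.07% to 10.96% of the C1q total in control, 10.6% and 16.4% in DMSO, and 11.2% and 17.3% in ONX-0914. C1qa made up 58.1% to 61.2% in control, 52.5% and 56.9% in DMSO, and 54.5% and 49.9% in ONX-0914. Therefore, all 4 libraries of injected mice had a lower C1qa share than any control library, which was not tested. The downstream components did not follow C1q. C3, the central component, had 6.06, 5.45 and 2.75 CPM in control, 1.88 and 7.14 in DMSO, and 2.27 and 2.38 in ONX-0914. Its Log2FC was -0.997 ± 0.57 (edgeR quasi-likelihood FDR = 0.371), with 7 to 36 counts per library. C4b, which shares near-identical sequence with C4a so that its counts are uncertain, ranged from 25.9 to 46.9 CPM in control and was 32.7 and 26.0 in ONX-0914 (Log2FC -0.19 ± 0.29, edgeR quasi-likelihood FDR = 0.737).

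**Figure D3:**
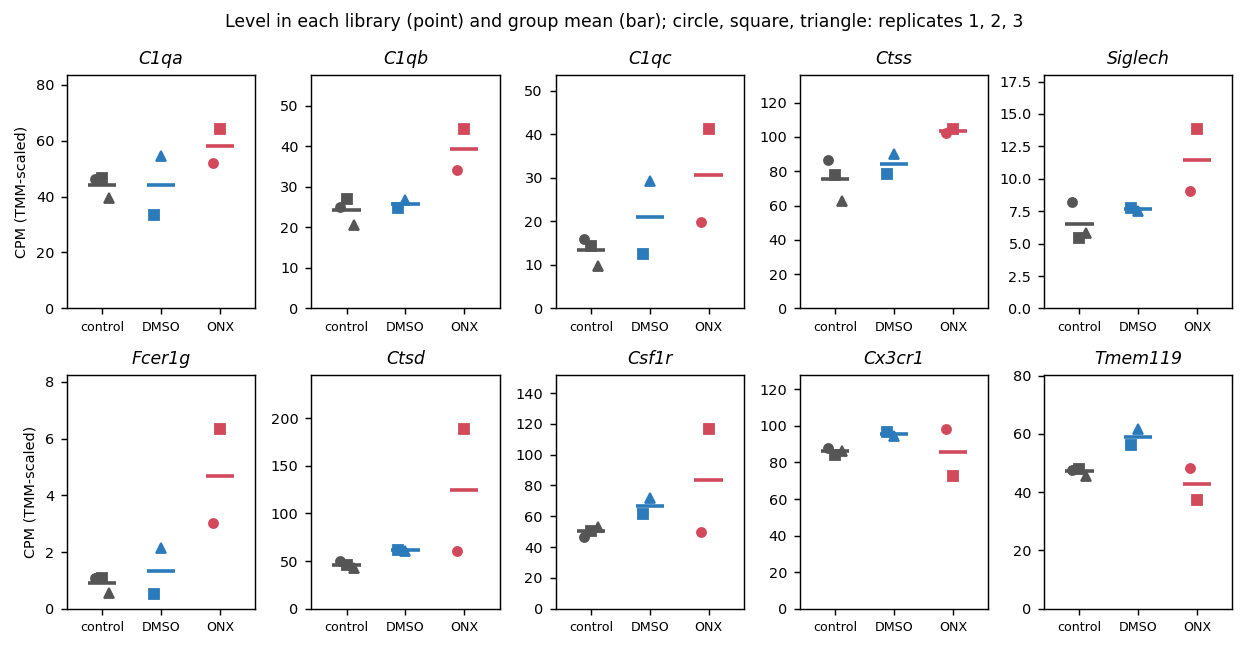
CPM (TMM-scaled, linear axes from 0) of 10 genes by group, with 1 point per library and a bar at the group mean; circles, squares and triangles are replicates 1, 2 and 3. C1qb, Ctss, Siglech and Fcer1g lie above all other libraries in both ONX-0914 libraries, whereas Ctsd and Csf1r are far higher in ONX-0914 replicate 2 than in any other library.

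The 12 homeostatic genes split in the ONX-0914 group. Cx3cr1, the fractalkine receptor and the most abundant of them in CPM, had 88.1, 84.0 and 86.2 CPM in control, 96.6 and 94.6 in DMSO, and 98.4 and 72.7 in ONX-0914. ONX-0914 replicates 1 and 2 were the highest and the lowest of the 7 libraries, and the Log2FC against control was -0.01 ± 0.18 (edgeR quasi-likelihood FDR = 0.976). Tmem119, a membrane protein specific to microglia in the brain, had 47.8, 48.0 and 45.7 CPM in control, 56.1 and 61.8 in DMSO, and 48.3 and 37.2 in ONX-0914 (Log2FC against control -0.15 ± 0.18, edgeR quasi-likelihood FDR = 0.675). P2ry12, the ADP receptor of resting microglia, had 16.4, 15.3 and 11.3 CPM in control, 20.1 and 17.8 in DMSO, and 10.1 and 37.7 in ONX-0914. Its ONX-0914 libraries differed by 3.75-fold and lay on either side of all others (Log2FC 0.80 ± 0.47, edgeR quasi-likelihood FDR = 0.381), and the Log2FC was 1.40 and -0.50 without replicates 1 and 2.

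Csf1r, the receptor on which microglial survival depends, showed a related pattern with 46.7, 50.7 and 53.1 CPM in control, 61.2 and 71.8 in DMSO, and 50.1 and 117 in ONX-0914. The Log2FC was 0.74 ± 0.31 (unadjusted p = 0.0441, edgeR quasi-likelihood FDR = 0.256), and -0.01 without ONX-0914 replicate 2. Sall1, a transcription factor of microglial identity, and Gpr34, a lysophosphatidylserine receptor, were 2.56-fold and 2.23-fold above the control mean in ONX-0914 replicate 2 and 0.971-fold and 0.750-fold of it in replicate 1. Olfml3, a secreted glycoprotein, was 0.611-fold of the control mean in replicate 2 and 1.23-fold in replicate 1. Among the 12 genes, Siglech alone, a sialic acid-binding lectin, had both ONX-0914 libraries above all others, with 8.20, 5.45 and 5.78 CPM in control, 7.78 and 7.50 in DMSO, and 9.06 and 13.9 in ONX-0914. The Log2FC of Siglech was 0.87 ± 0.31 (unadjusted p = 0.0212, edgeR quasi-likelihood FDR = 0.201), and 1.12 and 0.51 without ONX-0914 replicates 1 and 2.

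Among the phagocytic receptors and adaptors, the Fc receptor genes had the largest differences at low levels. Fcer1g, the signalling gamma chain of activating Fc receptors, had 1.07, 1.09 and 0.551 CPM in control, 0.537 and 2.14 in DMSO, and 3.02 and 6.34 in ONX-0914. These values rest on 2 to 6 counts in each control and DMSO library and on 12 and 96 counts in ONX-0914. The Log2FC of Fcer1g was 2.47 ± 0.61 (unadjusted p = 0.00342, edgeR quasi-likelihood FDR = 0.127). Fcer1g passed the filter on low counts only through the ONX-0914 libraries, in which it is high, so that this test favours a difference. The Log2FC was 2.79 and 1.72 without ONX-0914 replicates 1 and 2. Fcgr3, a low-affinity receptor for immunoglobulin G that pairs with this chain, had 1.43, 3.27 and 1.10 CPM in control, 4.02 and 2.86 in DMSO, and 2.77 and 12.7 in ONX-0914. Here ONX-0914 replicate 1 lay within the control range, and the Log2FC of 2.10 ± 0.68 (edgeR quasi-likelihood FDR = 0.177) fell to 0.47 without replicate 2.

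The other genes of this role differed less. Laptm5, a lysosomal membrane protein of blood-derived lineages and the most abundant of the role, had 48.1, 49.3 and 41.3 CPM in control, 48.3 and 55.3 in DMSO, and 50.3 and 57.1 in ONX-0914 (Log2FC 0.22 ± 0.18, edgeR quasi-likelihood FDR = 0.512). Tyrobp, the adaptor of TREM2, had 7.13, 7.36 and 9.09 CPM in control, 8.32 and 11.4 in DMSO, and 12.8 and 10.8 in ONX-0914. ONX-0914 overlapped DMSO, and the Log2FC of Tyrobp against control was 0.56 ± 0.27 (edgeR quasi-likelihood FDR = 0.298). Its partner Trem2 overlapped between the groups, with 4.28 to 9.82 CPM in control and 4.78 and 10.4 in ONX-0914 (Log2FC 0.34 ± 0.45, edgeR quasi-likelihood FDR = 0.699). Itgam, the CR3 alpha chain, had 18.5, 19.4 and 13.8 CPM in control, 19.3 and 24.3 in DMSO, and 18.9 and 7.47 in ONX-0914. The Log2FC of Itgam was -0.46 ± 0.39 (edgeR quasi-likelihood FDR = 0.539), and ONX-0914 replicate 1 lay within the control range. Itgam was lowest in ONX-0914 replicate 2, in which C1qa, C1qb and C1qc were highest. This library was the lowest for 29.1% of all genes and the highest for 30.3%. Aif1, which encodes the microglial marker IBA1, stayed between 9.09 and 16.1 CPM in all libraries.

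Of the Toll-like receptor arm, Ly86 alone was tested. Ly86 encodes MD-1, which pairs with the TLR4-related protein RP105. Its values were 1.43, 2.999 and 2.48 CPM in control, 5.37 and 6.07 in DMSO, and 5.03 and 9.32 in ONX-0914. All 4 libraries of injected mice therefore exceeded all control libraries, as for 3 of the 30 genes (Ly86, Fcrls and Ctsd) and 4.3% of all genes, and none lay below them with all 4 (4.74% of all genes). The Log2FC of Ly86 with ONX-0914 was 1.67 ± 0.42 (unadjusted p = 0.00397, edgeR quasi-likelihood FDR = 0.133), and 1.07 without ONX-0914 replicate 2. Cd14, the co-receptor for bacterial lipopolysaccharide, was below the filter with 1.07, 1.91 and 0.826 CPM in control, 0.805 and 1.78 in DMSO, and 2.01 and 5.29 in ONX-0914. Both ONX-0914 values of Cd14 exceeded the 5 others, but ONX-0914 replicate 1 had 8 counts and the others 3 to 7. Tlr2 and Tlr4, receptors for bacterial lipoproteins and lipopolysaccharide, had 0.545 to 2.50 and 0 to 1.65 CPM over all libraries.

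The lysosomal genes were higher in both ONX-0914 libraries for Ctss and mainly in 1 for Ctsd. Ctss, a cathepsin of antigen-presenting cells, had 86.6, 77.7 and 62.8 CPM in control, 78.6 and 89.96 in DMSO, and 102 and 105 in ONX-0914. The Log2FC of Ctss was 0.45 ± 0.18 (unadjusted p = 0.038, edgeR quasi-likelihood FDR = 0.241), and 0.47 and 0.44 without ONX-0914 replicates 1 and 2. Ctsd, the main aspartic protease of lysosomes, had 50.3, 45.5 and 42.4 CPM in control, 61.7 and 61.0 in DMSO, and 60.2 and 189 in ONX-0914. ONX-0914 replicate 1 thus lay just below both DMSO libraries, and replicate 2 was 4.10-fold above the control mean. The Log2FC of Ctsd was 1.44 ± 0.39 (edgeR quasi-likelihood FDR = 0.142; DESeq2 adjusted p = 0.0216), and 0.39 without ONX-0914 replicate 2. Cd68, a lysosomal glycoprotein of macrophages, overlapped with 7.13, 3.27 and 1.93 CPM in control and 5.54 and 7.47 in ONX-0914.

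In the activation and MHC class II genes the ONX-0914 values lay within the control range, on both sides of it or near 0. Apoe had 1440.4, 1407 and 1271 CPM in control, 1663 and 1635 in DMSO, and 1391 and 1364 in ONX-0914. Both ONX-0914 values lay within the control range (Log2FC 0.00 ± 0.19, edgeR quasi-likelihood FDR = 0.992). Lgals3, which encodes galectin-3, had 1.10 to 2.73 CPM in control and 2.27 and 2.58 in ONX-0914. Cst7, a marker of disease-associated microglia, had 0 counts in 5 libraries, 1 in DMSO replicate 3 and 2 in ONX-0914 replicate 2. H2-Ab1, an MHC class II beta chain, had 1.43, 2.18 and 0.551 CPM in control, 1.34 and 2.50 in DMSO, and 0.252 and 3.70 in ONX-0914, and was not tested. H2-Aa and the invariant chain gene Cd74 were also too low to be tested, with at most 17 and 35 counts in a library. Without ONX-0914 replicate 1, H2-Ab1 passed the filter only through ONX-0914 replicate 2. It had 56 counts there and 2 to 8 in the control and DMSO libraries, so that fit favours a difference.

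With DMSO against control, 0 of 30 genes passed the FDR threshold (edgeR quasi-likelihood test), where 0.0152% of all genes did, and DESeq2 called 0. At an unadjusted p below 0.05 there were 2 genes, Ly86 and Fcrls, both higher (2.65% of all genes reached this level and 1.48% were higher). The median Log2FC was 0.26 against -0.00 over all genes, and 23 of 30 genes were above 0 (49.5% of all genes). In 10 genes both DMSO libraries exceeded all control libraries (15.7% of all genes), namely Cx3cr1, P2ry12, Tmem119, Csf1r, Gpr34, Fcrls, Selplg, Ly86, Ctsd and Apoe. Thus 7 of these 10 were homeostatic genes. Both lay below control for P2ry13 alone (15% of all genes). The p-values above use a spread estimated over all 7 libraries, including those of ONX-0914. In a fit of control and DMSO alone, 7 of 28 microglia and complement genes had an unadjusted p below 0.05 (edgeR quasi-likelihood test). In that fit 1897 of all 12688 genes reached this level, and 0 of the 28 were called, where 141 of all genes were.

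Fcrls, an Fc receptor-like protein of microglia, had 12.5, 14.5 and 16.2 CPM in control, 23.1 and 23.9 in DMSO, and 17.9 and 19.7 in ONX-0914. DMSO was the highest group without overlap, and its Log2FC against control was 0.70 ± 0.22 (unadjusted p = 0.0113, edgeR quasi-likelihood FDR = 0.9999). The Log2FC of Fcrls with ONX-0914 against control was 0.38 ± 0.21 (edgeR quasi-likelihood FDR = 0.355). For Ly86 the Log2FC with DMSO was 1.26 ± 0.48 (unadjusted p = 0.0283, edgeR quasi-likelihood FDR = 0.9999). In the fit of control and DMSO alone the Log2FC of Ly86 was 1.24 (edgeR quasi-likelihood FDR = 0.183). Apoe had a Log2FC of 0.26 ± 0.19 with DMSO (edgeR quasi-likelihood FDR = 0.9999), although both DMSO libraries exceeded all control libraries.

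The vehicle comparison uses the same ONX-0914 libraries as the comparison with control. With ONX-0914 against DMSO, 0 of 30 genes passed the FDR threshold (edgeR quasi-likelihood test; 0.0456% of all genes), and DESeq2 called 0. At an unadjusted p below 0.05 there were 4 genes (14.7% of all genes), of which 3 were higher (8.08% of all genes). C1qb (Log2FC 0.62 ± 0.23, edgeR quasi-likelihood FDR = 0.286), Fcer1g (2.00 ± 0.67, FDR = 0.253) and Ctsd (1.03 ± 0.44, FDR = 0.332) were higher, and Tmem119 was lower (-0.47 ± 0.20, FDR = 0.332). Fcer1g passed the filter only through the ONX-0914 libraries, which favours a higher value. Without ONX-0914 replicate 2 the values were 0.41 for C1qb, 1.27 for Fcer1g, -0.033 for Ctsd and -0.28 for Tmem119. Fcer1g was also 1.22 and 3.17 without DMSO replicates 2 and 3, and Ctsd was 1.61 without ONX-0914 replicate 1. Both ONX-0914 libraries exceeded both DMSO libraries in 6 of 30 genes (20.8% of all genes) and lay below them in 4 (19.7%), namely Tmem119, Fcrls, Itgam and Apoe. Without ONX-0914 replicate 1, 16 of 32 genes were called (46% of all genes). Without ONX-0914 replicate 2, 1 of 30 was called, P2ry12, which was then lower (17% of all genes).

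**Figure D4:**
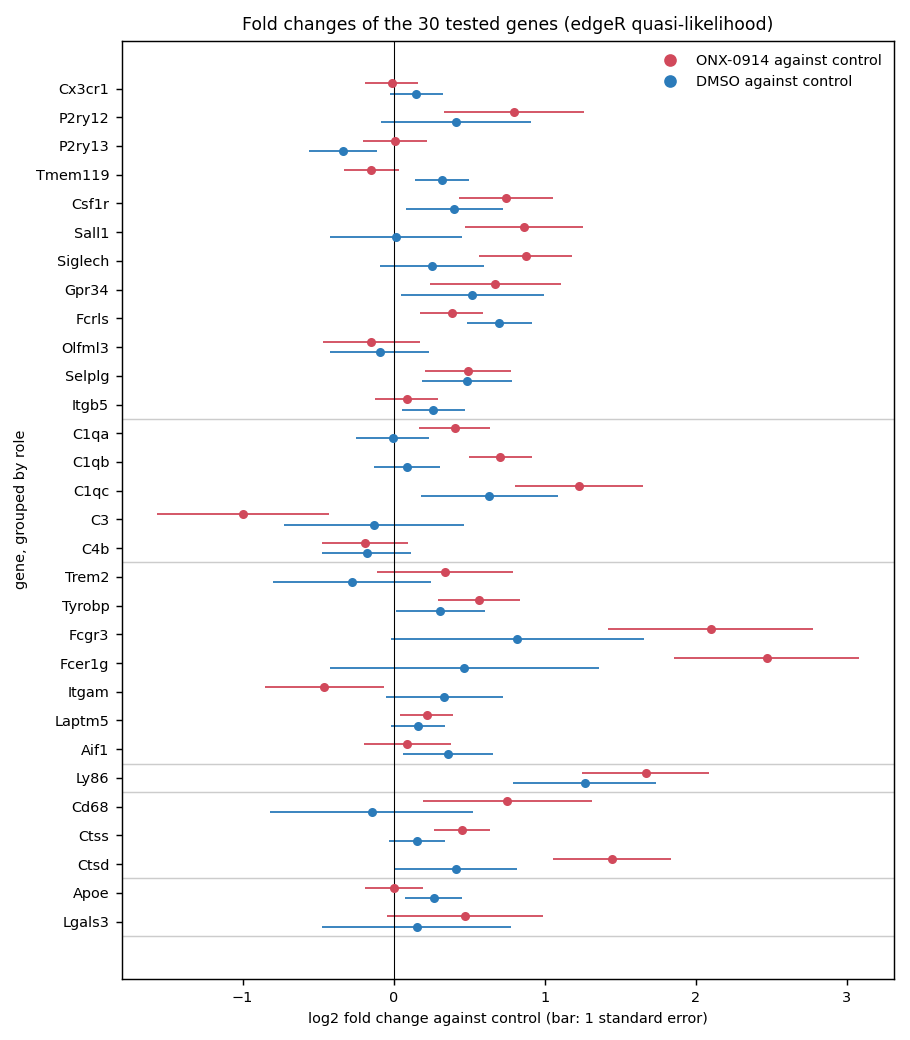
Log2FC against control (x axis, edgeR quasi-likelihood; bars, 1 standard error) of the 30 tested genes for ONX-0914 (red) and DMSO (blue), which share the control libraries. Fcer1g, Fcgr3, Ly86, Ctsd and C1qc have the largest values with ONX-0914, and no gene was called at an FDR of 0.05 for either treatment.

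Further genes of the same pathways were examined as lists, with ONX-0914 against control and edgeR's quasi-likelihood test. Of 30 other microglia genes 29 were tested, 0 passed an FDR of 0.05 (0.114% of all genes), 5 were higher at an unadjusted p below 0.05 (10.6% of all genes), and the median Log2FC was 0.48, where it was 0.05 over all genes. Ptprc, the leukocyte antigen CD45, had 9.56 and 5.95 CPM in ONX-0914 against 1.78 to 4.68 in the 5 other libraries (Log2FC 1.06 ± 0.39, edgeR quasi-likelihood FDR = 0.214; 0.73 and 1.41 without ONX-0914 replicates 1 and 2). Lpcat2, an enzyme of phospholipid remodelling, overlapped DMSO, with 9.82 and 15.4 CPM in ONX-0914 (Log2FC 1.15 ± 0.36, edgeR quasi-likelihood FDR = 0.170; 0.76 without replicate 2).

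Of 36 other complement genes 35 were matched and 12 tested, and 1 was higher at an unadjusted p below 0.05, near the 10.6% of all genes. That gene, Cd59a, an inhibitor of the membrane attack complex, had 5.78 to 11.4 CPM without ONX-0914, 21.9 with it in replicate 1 and 8.33 in replicate 2 (Log2FC 1.22 ± 0.46, edgeR quasi-likelihood FDR = 0.217; 0.43 without replicate 1). The median of the 12 was 0.29. Of the ligands and brakes of microglia, 11 of 13 were tested, with a median of 0.32 and 1 higher gene, again near the 10.6% of all genes. This was Entpd1, the ectoenzyme CD39 that degrades extracellular ATP. It had 14.3 and 16.1 CPM in ONX-0914 against 6.61 to 9.63 in the others (Log2FC 0.86 ± 0.26, edgeR quasi-likelihood FDR = 0.160). Cx3cl1, the ligand of CX3CR1, had 178 to 214 CPM without ONX-0914, 158 with it in replicate 1 and 626 in replicate 2. In ONX-0914 replicate 2 the ligand was highest and its receptor Cx3cr1 lowest of the 7 libraries. This library was also the highest for 30.3% of all genes and the lowest for 29.1%, and a relation between ligand and receptor was not tested.

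Among 14 partners of Toll-like receptors 7 were tested and 2 were higher at an unadjusted p below 0.05 (10.6% of all genes), the adaptor Myd88 (Log2FC 1.44 ± 0.52, edgeR quasi-likelihood FDR = 0.207) and the ubiquitin ligase Traf6 (0.93 ± 0.34, FDR = 0.210). Traf6 had 10.6 and 20.9 CPM in ONX-0914 and 8.20 to 15.7 in the others, and its Log2FC was 0.31 without ONX-0914 replicate 2. Myd88 was highest in DMSO replicate 2 (6.17 CPM), and ONX-0914 had 4.28 and 5.68. Of 20 other activation genes 7 were tested and 2 were higher at that level, Lyz2, the lysozyme of macrophages (1.48 ± 0.56, edgeR quasi-likelihood FDR = 0.222), and the interferon-induced Ifitm3 (0.98 ± 0.35, FDR = 0.205). Lyz2 had 18.4 and 19.2 CPM in ONX-0914 and 2.48 to 13.1 in the others. Ifitm3 had 7.05 and 14.3 CPM in ONX-0914 and 5.10 to 6.07 in the others, and its Log2FC was 0.32 without ONX-0914 replicate 2. Of 8 other MHC class II genes 1 was tested, H2-DMa, and it had 11.2 to 16.8 CPM in control and 10.3 and 9.32 in ONX-0914.

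Markers of other cell types also differed in the ONX-0914 libraries. Genes of border macrophages and monocytes (10 genes, 0 tested) summed to 11.6 and 13.3 CPM in ONX-0914 and 4.56 to 6.42 in the others, with Mrc1, the mannose receptor, at 2.01 and 2.31 against 0.551 to 1.78. Neutrophil genes (7 genes, 0 tested) summed to 1.51 and 18.8 CPM against 0.268 to 1.93, led by S100a9 with 8.06 CPM in ONX-0914 replicate 2 and 0 in 4 of the control and DMSO libraries. Lymphocyte genes (8 genes, 0 tested) were at 0 in all control libraries and summed to at most 4.28 CPM elsewhere, of which Cd4 made up 4.03 in ONX-0914 replicate 1. Endothelial genes summed to 254 and 266 CPM against 140 to 187, and 5 of 6 were higher at an unadjusted p below 0.05, where 10.6% of all genes were. All 4 tested red blood cell genes were also higher at that level, led by Hbb-bs with 25.9 and 388 CPM against 9.27 to 17.7.

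Astrocyte genes summed to 3839 and 2355 CPM in ONX-0914 against 3217 to 3817 in the others, oligodendrocyte genes to 9714 and 4305 against 4936 to 9059, and choroid plexus genes to 74.0 and 184 against 39.9 to 188. The microglia and complement genes without Apoe summed to 829 and 1084 CPM in ONX-0914, 788 and 871 in DMSO, and 735, 763 and 639 in control. The part of blood, border macrophages, vessels and dissected region in the differences of the microglia and complement genes was not tested.

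**Figure D5:**
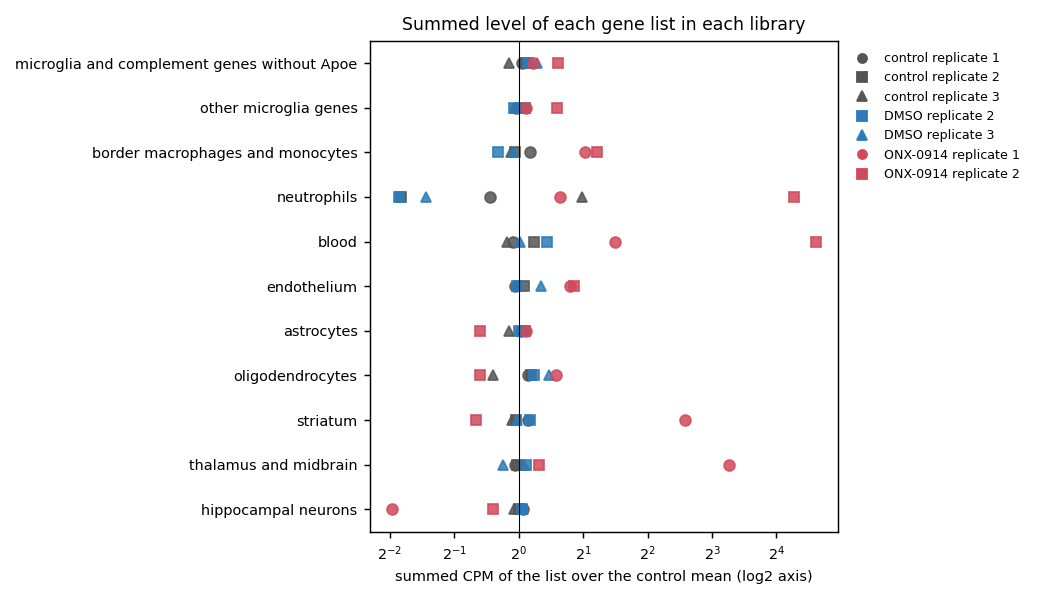
Summed CPM of 11 gene lists in each library, divided by the control mean (x axis, log2 scale), with 1 point per library. Blood and neutrophil genes are highest in ONX-0914 replicate 2 and the striatal and thalamic lists in ONX-0914 replicate 1. The microglia and complement genes without Apoe are 1.16-fold and 1.52-fold of the control mean in ONX-0914 replicates 1 and 2, within a range of 639 to 1084 CPM over all libraries.

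Finally, the genes whose log2 CPM followed that of Cx3cr1 most closely over the 7 libraries were Ost4 (Pearson r = 0.994), Marc2 (0.991), Mis12 (0.986), Gcsh (0.985) and Prelid3b (0.984). None of them is a microglia or complement gene of the set. These values describe 7 libraries that share the differences in depth and makeup given above.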

How the data were processed

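Files deposited by the authors, 1 for each library, hold raw counts of reads on each gene without normalization. Hippocampal RNA (RIN of at least 8) was made into directional libraries and sequenced as 100 bp single-end reads. The submitters' processing notes name Trimmomatic 0.39, STAR 2.7.3a, featureCounts 2.00 and GRCm39. The strand setting and annotation are not given in the sources used here, and overlapping or near-identical genes may therefore share reads. Summary lines for unassigned reads were left out. Of the reads counted as assigned, ambiguous or without a feature, 89.6% to 91.4% were assigned to genes.

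The genes, lists and tests were chosen with earlier results of these data known. Symbols came from GENCODE M21, and the symbol C5 had no match, which does not show that this gene is absent from the counts. Low genes were removed with filterByExpr (edgeR 4.0.16, R 4.3.3), libraries were scaled by TMM, and glmQLFit estimated 1 mean per group over all 7 libraries. They were tested with glmQLFTest (two-sided), and p-values were adjusted by Benjamini-Hochberg over 13152 genes, with an FDR below 0.05 as a call. Standard errors came from the F statistics. Exon lengths for CPM per kilobase also came from GENCODE M21. The common biological coefficient of variation was 0.249. With 2842675 to 13782270 counts per library, 1 CPM corresponds to 2.80 to 15.1 counts, which sets the counting error of low genes.

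Full values are given for genes with an FDR below 0.1 in any comparison, genes with both ONX-0914 libraries on 1 side of all others, genes with both DMSO libraries on 1 side of control and an unadjusted p below 0.05, and the most abundant gene of each role. Of the other lists, up to 3 genes of smallest p and the most abundant marker were eligible. Further genes were described after their values were seen. The result of 1 gene of these lists is not reported here. Alternatives were RLE factors, total counts, DESeq2 1.42.0, other filters, fits of only 2 groups, edgeR's legacy quasi-likelihood fit, a replicate block, thinning and leaving out each library. The fit was also run on simulated counts with 200 changed genes. Their spread was that of the control and DMSO libraries alone, so this run does not show how well changes are found with the ONX-0914 libraries.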

Additional observations from a re-analysis of the deposited data

How the results depend on the processing

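The count of called microglia and complement genes with ONX-0914 against control was 0 in edgeR's quasi-likelihood test and moved to 1 with DESeq2 and to 5 without the filter on low counts (Ctsd, Ly86, C1qc, Fcer1g and Fcgr3, where 2.15% of all genes were called). Leaving out 1 library gave 0 to 18 such genes against control and 0 to 16 against DMSO, the upper ends without ONX-0914 replicate 1, and 0 for DMSO against control. In those fits the lone library of a group is assumed to vary like the others. Without ONX-0914 replicate 1, Cd14, H2-Ab1 and Fcer1g passed the filter only through ONX-0914 replicate 2, where they are high. The count was 0 under every other alternative run, and the cause of the differences was not tested.

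Over all genes, 15 were called with ONX-0914 against control, and 362 with DESeq2, 578 without the filter, 40 after thinning to the smallest total, 3 with the compared groups alone and 0 to 7023 when 1 library was left out. With DMSO against control, 2 were called, and 5 with DESeq2, 11 without the filter, 0 with at least 10 counts in every library, 141 with the compared groups alone and 0 to 146 when 1 library was left out. With ONX-0914 against DMSO, 6 were called, and 11 with RLE factors, 3 with total counts, 229 with DESeq2, 297 without the filter, 10 with at least 10 counts in every library, 0 with the compared groups alone and 0 to 6313 when 1 library was left out. Total counts moved the median Log2FC of all genes with ONX-0914 against control from 0.05 to 0.19 and that of the microglia and complement genes from 0.46 to 0.61.

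Deviations of same-numbered libraries from their group means correlated at -0.10 to 0.06. In groups of 2 libraries these deviations mirror each other, so the values cannot settle whether the replicate numbers pair the libraries. With the replicate block, 1, 0 and 0 genes were called in the 3 comparisons and 0 of the microglia and complement genes.

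Of 583 recomputed Log2FC values of the genes named, 22 reversed, most of them near 0. Cx3cr1 with ONX-0914 against control was 0.12 with total counts, 0.0018 without the filter, 0.010 with at least 10 counts, 0.024 after thinning and -0.25 to 0.19 over the fits that left out 1 library. Apoe was -0.0094 with RLE factors, -0.016 with DESeq2, -0.031 with the replicate block, -0.0022 after thinning and -0.047 to 0.039 when 1 library was left out. With 1 library left out, ONX-0914 against control gave -0.37 to 0.15 for C4b, -0.011 to 1.20 for Csf1r, -0.50 to 1.40 for P2ry12, -0.35 to 0.033 for Tmem119, -1.21 to 0.14 for Itgam, -0.42 to 0.81 for Trem2 and -0.30 to 1.68 for Cx3cl1, and ONX-0914 against DMSO gave -0.033 to 1.61 for Ctsd. A further 32 values passed an FDR of 0.05 where the value reported did not, 23 of them without ONX-0914 replicate 1.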
